A study of Mus musculus with 15 samples.

Results

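Respiratory chain genes were taken as every symbol of the count table that matched name patterns for subunits of complexes I to V, encoded by the nucleus or by mitochondrial DNA. A subunit with a name outside these patterns is not included. This gave 115 of 55367 symbols, of which 13 are mitochondrial genes and 85 are nuclear genes. The other 17 are nuclear symbols named or annotated as pseudogenes, and they were kept apart. The 85 nuclear genes fall into 37 for complex I (NADH dehydrogenase), 4 for complex II (succinate dehydrogenase), 9 for complex III (the cytochrome bc1 complex), 18 for complex IV (cytochrome c oxidase) and 17 for complex V (ATP synthase). The mitochondrial genes fall into 7 for complex I, 1 for complex III, 3 for complex IV and 2 for complex V.

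The libraries were made from medial cortex of C57BL/6 mouse embryos at embryonic day 11.5, sorted with 2 stains. AnnexinV binds phosphatidylserine once it shows on the cell surface, and PI (propidium iodide) enters cells whose membrane is open. A first group of 6 libraries holds AnnexinV-positive PI-negative cells, and a second group of 6 holds double-negative cells, which took up neither stain. The labels give no genotype difference, agent or treatment between the groups, and the remaining 3 of the 15 samples carry no sort label and were not used. The labels number the libraries 1 to 6 in each group but do not say whether the numbers stand for separate embryos, litters or sorts, and the spread that the p-values rest on may therefore be technical.

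The chain passes electrons from NADH through complex I, or from succinate through complex II, to ubiquinone, then through complex III and cytochrome c to oxygen at complex IV. Complexes I, III and IV pump protons across the inner mitochondrial membrane, and complex V uses their return to make ATP. Mitochondrial DNA encodes core subunits of complexes I, III, IV and V, transcribed as long precursors that are cut into separate RNAs, whereas complex II is encoded by the nucleus alone. Neural progenitors of the early cortex are known to rely largely on glycolysis, with oxidative phosphorylation rising as neurons form.

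Total counts ran from 190698 to 444420 in AnnexinV-positive libraries and from 88195 to 329818 in double-negative libraries. The share of counts in a single ribosomal RNA gene was 21.5% to 43.6%. Haemoglobin genes held up to 30.8% of the counts in double-negative libraries 1 to 3 but at most 0.00964% in the other 9 libraries. Of 7 cortex markers, 6 were detected, summing to 350.3 to 901 CPM in AnnexinV-positive libraries and 590.3 to 866 CPM in double-negative libraries (CPM being counts per 1000000, here of counts outside ribosomal RNA and haemoglobin). Emx1 and Lhx2 had counts in all 12 libraries, Emx2 in 10, Wnt8b in 4, Lmx1a in 3 and Wnt3a in 0. All 14 neuronal markers listed were detected, and their summed level was 385 to 1234 CPM in AnnexinV-positive libraries against 2442 to 5329 CPM in double-negative libraries. All 11 progenitor markers were detected, summing to 2171 to 3649 CPM in AnnexinV-positive libraries and 900.1 to 2811 CPM in double-negative libraries. The 7 cell cycle markers summed to 1899.9 to 3299 CPM in AnnexinV-positive libraries and 210.1 to 1903 CPM in double-negative libraries. Markers of other cell types were detected for endothelium (8 of 8, at most 558 CPM in AnnexinV-positive libraries against 9.32 CPM in double-negative libraries), for macrophages (7 of 8, C1qa at 0, at most 749.8 CPM and 110.5 CPM) and for mesenchyme (7 of 8, Dcn at 0, at most 1070.2 CPM and 46.4 CPM), each at 0 in at least 1 library of either group. The groups did not overlap in the neuronal sum and overlapped in the progenitor and cell cycle sums, and the part of these marker levels in the values below was not tested. In such bulk libraries, fewer cells of a type and less RNA per cell cannot be told apart.

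No respiratory chain gene passed the test for a difference between the sort groups. Among the 98 members that are not pseudogene symbols, 87 had enough counts to be tested (76 nuclear, 11 mitochondrial), and 0 had an adjusted p under 0.05 by the quasi-likelihood test of edgeR, where 1.87% of all 3800 genes tested did. A raw p under 0.05 was found for 6 members, all nuclear and all higher in AnnexinV-positive cells, against 15.7% of all genes. DESeq2 called 1 member, Ndufa12, where it called 4.87% of all genes, and had a raw p under 0.05 for 4 members, beside 17.5% of all genes. Of the 87 members, 0 had libraries that did not overlap between the groups, which 2.58% of all genes had. On simulated counts with the same libraries, the test found 6.6% of genes changed 2-fold and 43.4% of genes changed 4-fold. A change of moderate size in a single gene was thus mostly not detectable with these libraries. The changed genes were drawn at random from all genes tested, so the shares for the members may differ.

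The nuclear members nevertheless lay more often above 0 than below it, on levels scaled with edgeR's TMM method. Of 76 nuclear members tested, 55 had a positive log2 fold change, and their median was 0.27 beside 0.06 over all genes tested, of which 53.3% were positive. Of the 11 mitochondrial members tested, 7 were positive and the median was 0.06. The nuclear median was 0.48 for complex II, 0.45 for complex III, 0.25 for complex V, 0.20 for complex I and 0.17 for complex IV. Leaving out 1 library at a time moved these medians to 0.29 to 0.60 for complex II, 0.25 to 0.51 for complex III, 0.16 to 0.35 for complex V, 0.12 to 0.29 for complex I and 0.12 to 0.42 for complex IV, so their order was not stable. Shifts of over 1.5 times came without AnnexinV-positive library 2 (0.29, complex II), AnnexinV-positive library 6 (0.25, complex III, and 0.12, complex I), AnnexinV-positive library 1 (0.29, complex I, and 0.26, complex IV), double-negative library 3 (0.16, complex V, and 0.34, complex IV) and double-negative library 2 (0.42, complex IV). With limma on the second deposited table, which moved the median of all genes to 0.42, 69 of 76 nuclear members were positive (median 0.53), and without the filter on low counts 67 of 81 were. On TMM-scaled counts 58 of 76 nuclear members were positive without double-negative library 5. The number was also 58 of 76 without double-negative libraries 1 to 3, the libraries with haemoglobin. The share of positive genes among all genes is not given here for these alternative fits, so their counts have no baseline.

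**Figure D1:**
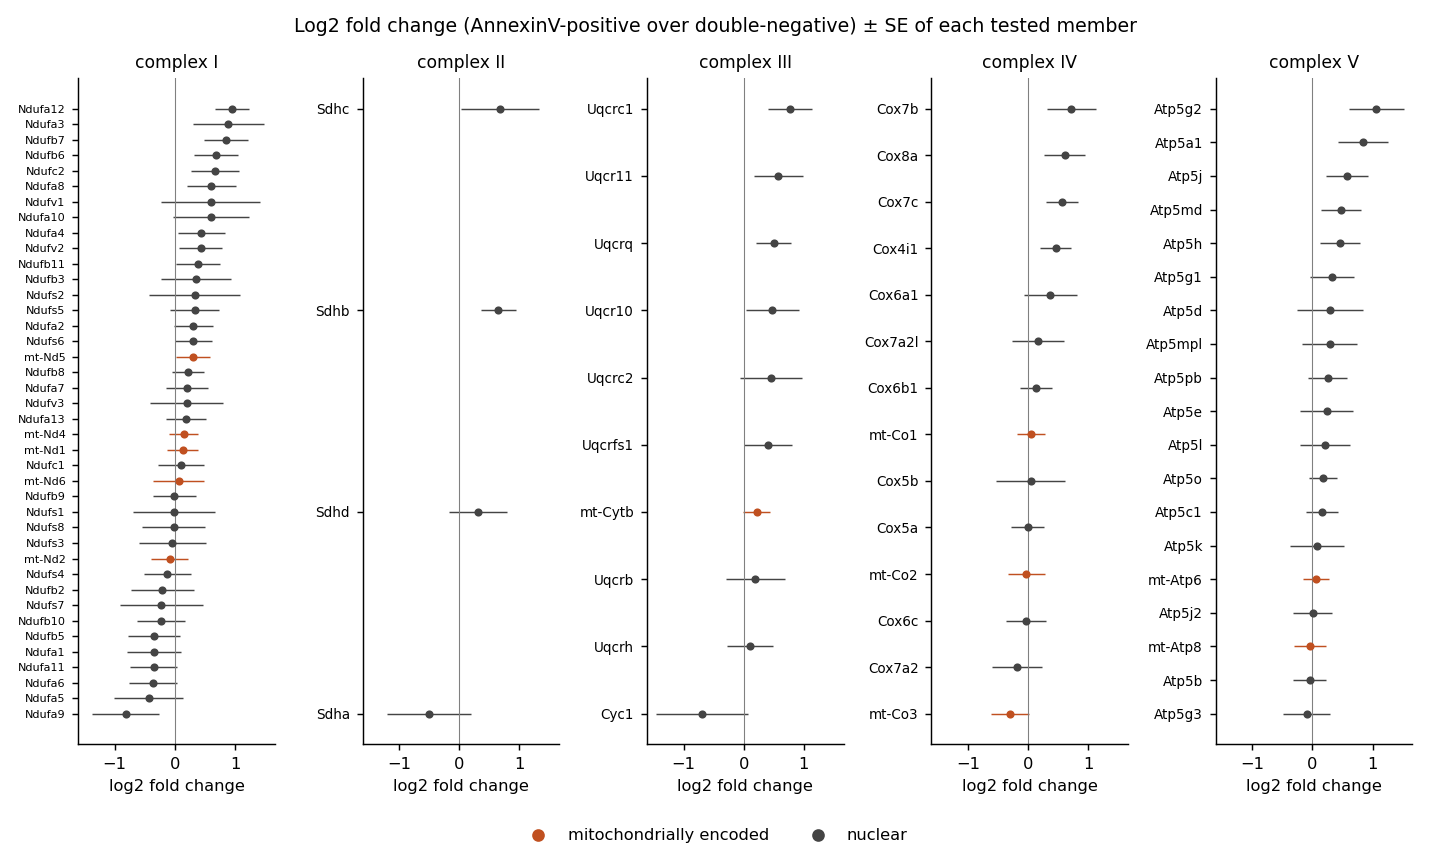
Log2 fold change of AnnexinV-positive over double-negative libraries with its standard error (horizontal axis) for each of the 87 tested members, in 1 panel per complex and ordered by value. Ndufa12, Uqcrc1, Cox7b and Atp5g2 lie at the top of complexes I, III, IV and V, the mitochondrial members (orange) lie between -0.30 and 0.30, and 0 members passed the adjusted threshold.

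Complex I has a matrix arm that takes electrons from NADH and a membrane arm that pumps protons. Ndufa12, an accessory subunit where these arms meet, had 369, 558 and 968 CPM as lowest, median and highest of the AnnexinV-positive libraries and 194, 343 and 406 CPM in double-negative libraries. Every AnnexinV-positive library lay above the median of the double-negative libraries, although the highest double-negative library lay above the lowest AnnexinV-positive one. Its log2 fold change was 0.95 (SE 0.28), with an adjusted p of 0.0686 in edgeR and 0.0367 in DESeq2. It passed in 3 of 26 alternative settings, in which its log2 fold change ran from 0.77 to 1.17 and its adjusted p from 0.0288 to 0.277.

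Ndufb7, a small accessory subunit of the membrane arm, had 189, 227 and 333 CPM in AnnexinV-positive libraries and 45.8, 116 and 241 CPM in double-negative libraries. The groups overlapped, its log2 fold change was 0.84 (SE 0.37), and its adjusted p was 0.252 in edgeR. Ndufb6, also of the membrane arm, averaged 196 ± 51.7 CPM and 124 ± 44.0 CPM (SD, n = 6 each) in the same order of groups. Ndufc2 averaged 173 ± 36.8 CPM in AnnexinV-positive libraries and 107 ± 65.0 CPM in double-negative libraries, with a log2 fold change of 0.66 (SE 0.40). After Ndufa12, the nuclear member of complex I with the highest mean was Ndufb8, at 337 ± 48.0 CPM and 290 ± 65.9 CPM (SD, n = 6 each). At the other end stood Ndufa9, a subunit of the matrix arm, with a log2 fold change of -0.82, chosen after its value was seen.

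Complex II also belongs to the citric acid cycle, and its 4 genes were tested. Sdhb, the iron-sulfur subunit, had 299, 464 and 607 CPM in AnnexinV-positive libraries and 147, 304 and 414 CPM in double-negative libraries. Only AnnexinV-positive library 6 fell below the double-negative median, and the log2 fold change was 0.65 (SE 0.29), with an adjusted p of 0.272 in edgeR. Sdhc, a membrane anchor, had 0.67 (SE 0.65), and Sdhd, the other anchor, had 0.32 (SE 0.49). Sdha, the subunit that binds FAD, had -0.50 (SE 0.70). All 4 genes thus had libraries of the groups that overlapped, and 3 of 4 were positive.

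In complex III, Uqcrc1, a core subunit on the matrix side, had 135, 288 and 388 CPM in AnnexinV-positive libraries and 70.7, 181 and 221 CPM in double-negative libraries. Its log2 fold change was 0.77 (SE 0.37), and 4 of 6 AnnexinV-positive libraries lay above the double-negative median. Uqcrq, a small subunit, averaged 344 ± 73.8 CPM and 244 ± 71.0 CPM (SD, n = 6 each), in AnnexinV-positive and double-negative libraries. Uqcr11 and Uqcr10, also small subunits, had log2 fold changes of 0.58 (SE 0.41) and 0.48 (SE 0.44). Uqcrfs1, the Rieske iron-sulfur protein, had 0.40 (SE 0.39). Of the 9 nuclear genes of this complex, 8 were positive; the exception, named after its value was seen, was Cyc1, cytochrome c1, at -0.70.

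In complex IV, Cox7c had 279, 431 and 622 CPM in AnnexinV-positive libraries and 246, 282 and 390 CPM in double-negative libraries. Its log2 fold change was 0.56 (SE 0.27), and the groups overlapped. Cox4i1, a regulatory subunit, averaged 487 ± 106 CPM in AnnexinV-positive libraries and 354 ± 80.7 CPM in double-negative ones (SD, n = 6 each). Cox8a and Cox7b had log2 fold changes of 0.61 (SE 0.34) and 0.72 (SE 0.41). Cox6b1 averaged 414 ± 89.2 CPM and 374 ± 104 CPM (SD, n = 6 each), a log2 fold change of 0.13 (SE 0.26). Per kilobase of merged annotated exons, a length that can exceed that of a transcript, it had the highest level of the nuclear members. This was 557 CPM per kb over all 12 libraries.

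Several subunits of complex IV exist as isoforms, some of them typical of heart and skeletal muscle, lung or testis. Cox6a2, Cox7b2, Cox8b and Cox8c had no count in any of the 12 libraries. A count of 0 allows up to 3 counts in a library, which is 0.000675% to 0.00157% of the counts of an AnnexinV-positive library and 0.000910% to 0.00340% of those of a double-negative library; this limit covers counting error only. Cox7a1, the muscle isoform, had 4 counts in AnnexinV-positive library 2 and 0 in the other 11 libraries. Cox4i2, known from lung, had 5 and 2 counts, and Cox6b2, known from testis, had 2 and 9 counts, each summed over the AnnexinV-positive and then the double-negative libraries. Ndufa4l2, a paralog of Ndufa4, had 0 and 2 counts by the same sums. The counterparts Cox6a1, Cox7a2, Cox7a2l, Cox7b, Cox8a and Ndufa4 were all tested, Ndufa4 being placed with complex I by its symbol although it is now known as a subunit of complex IV, with log2 fold changes from -0.18 for Cox7a2 to 0.72 for Cox7b.

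In complex V, Atp5g2, 1 of 3 genes for the c subunit of the rotating ring, had 62.0, 191 and 293 CPM in AnnexinV-positive libraries and 25, 86.5 and 198 CPM in double-negative libraries. Only AnnexinV-positive library 2 lay below the double-negative median, and the log2 fold change was 1.06 (SE 0.45), with an adjusted p of 0.245 in edgeR. An identical processed copy, Gm10175, took 24.2% of the counts of both, and the log2 fold change was 0.74 with those counts added. The other c subunit genes, Atp5g1 and Atp5g3, whose mature proteins are the same as that of Atp5g2, had 0.32 (SE 0.37) and -0.09 (SE 0.39). Atp5a1, the alpha subunit of the catalytic head, had 0.84 (SE 0.42), and all 6 AnnexinV-positive libraries lay above the double-negative median. Atp5j and Atp5md had 0.57 (SE 0.34) and 0.47 (SE 0.33). Atp5c1, the gamma subunit of the shaft, averaged 533 ± 149 CPM and 475 ± 142 CPM, and Atp5o, of the stalk, averaged 496 ± 61.8 CPM and 435 ± 87.5 CPM (SD, n = 6 each).

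Promoters of respiratory chain genes are known to bind NRF1 and the ETS factor GABP (also called NRF2). RefSeq promoter windows of build GRCm38.p6, from 250 bases before to 50 bases after the start, were found for 68 of the 85 nuclear genes. The NRF1 motif, read as GCGCA, any base and GCGC on either strand, was in 17 of these 68 genes, beside 5.19% of 27025 genes with such windows. The ETS motif CCGGAAG, on either strand, was in 17 of 68 genes beside 9.93% of all genes. There were 4 members with both motifs, and the motifs overlapped in 0 of them. Members with the NRF1 motif had a median log2 fold change of 0.24, and members without it 0.23; for the ETS motif the medians were 0.37 and 0.19. A stretch of 60 bases upstream of the RefSeq start of 2 members named above follows, on the gene's strand, 5′ to 3′, with the motif in capitals. Both stretches lie inside the wider gene spans of GENCODE M21, which begin at chr15:102672352 for Atp5g2 and chr8:83566671 for Ndufb7. The first base of the NRF1 motif lies 42 bases before the start of Atp5g2 (chr15:102671055-102671114, minus strand), and that of the ETS motif lies 20 bases before the start of Ndufb7 (chr8:83566698-83566757, plus strand).
Atp5g2: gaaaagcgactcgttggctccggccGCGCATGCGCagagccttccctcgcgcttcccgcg
Ndufb7: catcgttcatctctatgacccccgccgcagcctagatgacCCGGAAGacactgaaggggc

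Length here means all annotated exons of a gene, merged, which can exceed the length of a transcript. Cox7c has 1131 merged bases and an aligned transcript of 540 bases, so nuclear levels and ranks depend on this choice. Per length, 8 of the 13 mitochondrial members had a higher level than every nuclear member. The other 5 (mt-Co3, mt-Nd2, mt-Nd6, mt-Nd4l and mt-Nd3) were below Cox6b1. These levels leave out the counts assigned to nuclear copies of mitochondrial genes, described below. With those counts added, mt-Co3 had 883 CPM per kb and lay above Cox6b1. On the same basis mt-Atp6 had 12699, mt-Nd4l 304 and mt-Nd3 170 CPM per kb. Over all 12 libraries mt-Atp6, the a subunit of complex V, had 6211 CPM per kb of exon, mt-Atp8, a small subunit of the same complex, had 4048, mt-Co1, the catalytic subunit of complex IV, had 1763, and mt-Cytb, cytochrome b of complex III, had 1481. The lowest were mt-Nd6 at 318, mt-Nd4l at 132 and mt-Nd3 at 48.2 CPM per kb. Among nuclear members tested, the median was 92.7 CPM per kb. In CPM, mt-Atp6 had 3470, 4176 and 5284 as lowest, median and highest in AnnexinV-positive libraries and 2672, 3827 and 6565 in double-negative libraries. For mt-Co1 these were 2439, 2641 and 3589 CPM and 1556, 2714 and 4598 CPM, in the same order of groups. The AnnexinV-positive values of both lay inside the double-negative range. Their log2 fold changes were 0.06 (SE 0.22) and 0.05 (SE 0.23).

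Of the other tested mitochondrial members, mt-Nd1, mt-Nd4 and mt-Nd5, membrane subunits of complex I, had log2 fold changes of 0.13 (SE 0.26), 0.14 (SE 0.24) and 0.30 (SE 0.28). Further membrane subunits, mt-Nd2 and mt-Nd6, had -0.09 (SE 0.31) and 0.06 (SE 0.43), and mt-Cytb had 0.22 (SE 0.22). In complex IV, mt-Co2, which takes electrons from cytochrome c, had -0.03 (SE 0.31) and mt-Co3 had -0.30 (SE 0.31). In complex V, mt-Atp8 had -0.05 (SE 0.27). Gene bodies overlap by 43 bases between mt-Atp8 and mt-Atp6, by 7 between mt-Nd4l and mt-Nd4, and by 14 between mt-Nd5 and mt-Nd6, which lie on opposite strands. Whether the counting used strand is not given in the sources used here, so mt-Nd6 and the transcript opposite it cannot be told apart.

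The counts of several mitochondrial members were split with copies of mitochondrial DNA that lie in the nuclear genome. Alignment of annotated transcripts found a near-identical nuclear copy with counts for 7 of the 13, and these sit near each other on the minus strand of chromosome 1, with a further copy of mt-Co1 on chromosome 2. The copy took 9.94% of the counts of gene and copy for mt-Nd4, 21.8% for mt-Co1, 35.8% for mt-Co2, 43.1% for mt-Co3, 51.0% for mt-Atp6, 57.7% for mt-Nd4l and 63.0% for mt-Nd3. The first 60 transcript bases of 2 pairs in GRCm38 show how alike they are, with the base that differs in capitals; positions count from 1 at the 5′ end. mt-Atp6 (chrM:7927-7986, plus strand) and its copy Gm10925 (chr1:24614592-24614651, minus strand) are the same over all 678 aligned bases, and mt-Nd3 (chrM:9459-9518, plus strand) differs from its copy Gm28438 (chr1:24613060-24613119, minus strand) by T3C alone over 345 bases.
mt-Atp6: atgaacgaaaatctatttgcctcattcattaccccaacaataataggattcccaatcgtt
Gm10925: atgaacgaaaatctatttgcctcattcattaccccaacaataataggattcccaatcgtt
mt-Nd3: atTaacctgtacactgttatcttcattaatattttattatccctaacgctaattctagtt
Gm28438: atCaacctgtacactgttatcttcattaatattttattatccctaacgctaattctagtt

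The pair mt-Nd3 and Gm28438 never had counts in the same library. mt-Nd3 had 33 counts in AnnexinV-positive library 6 and 28 in double-negative library 6, where the copy had 0. In the other 5 AnnexinV-positive libraries mt-Nd3 had 0 and the copy 10, 12, 4, 10 and 22 counts, and in the other 5 double-negative libraries mt-Nd3 had 0 and the copy 9, 3, 1, 14 and 19 counts. With the copies' counts added to each gene, all 13 mitochondrial members could be tested, 0 passed the adjusted threshold, and 9 of 13 were positive with a median of 0.08. mt-Co3 then averaged 781 ± 181 CPM in AnnexinV-positive libraries and 603 ± 241 CPM in double-negative ones (SD, n = 6 each), and its log2 fold change changed sign, from -0.30 to 0.37, with neither value past the threshold. Among nuclear members, Ndufb4 shared its counts with the pseudogene symbol Ndufb4c, which took 65.2% of them, and Ndufb4 was not tested on its own. Of the 17 pseudogene symbols, 8 had no count and 2, Ndufb4c and Ndufb1-ps, were tested.

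**Figure D2:**
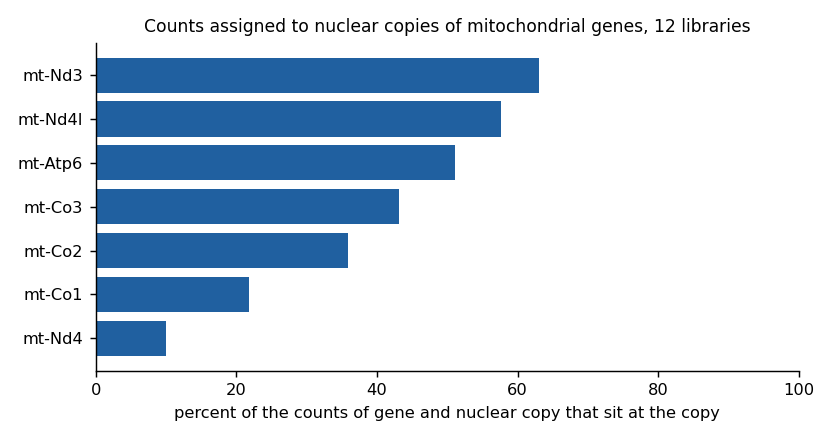
Share of the summed counts of each mitochondrial gene and its nuclear copies that were assigned to the copies, in percent of both, over 12 libraries. The share runs from 9.94% for mt-Nd4 to 63.0% for mt-Nd3, and is over 50% in 3 of 7 genes.

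The nuclear members summed to 12577, 12108, 11853, 15442, 15765 and 18527 CPM in AnnexinV-positive libraries 1 to 6, and to 11182, 12408, 11133, 12678, 10831 and 12272 CPM in double-negative libraries 1 to 6. AnnexinV-positive libraries 4 to 6 lay above every double-negative library, while AnnexinV-positive libraries 1 to 3 lay among them. On total counts, ribosomal RNA and haemoglobin included, the nuclear sums were 11489 to 16164 CPM in AnnexinV-positive libraries and 7092 to 10348 CPM in double-negative libraries, without overlap. With haemoglobin, ribosomal RNA and mitochondrially encoded genes left out of the total, they were 16202 to 24628 CPM and 13914 to 17386 CPM. The groups then overlapped, with a log2 ratio of means of 0.35. The lack of overlap thus depended on the total used, and sums of other genes were not compared. On the TMM scale the means were 14379 ± 2647 CPM and 11751 ± 789 CPM (SD, n = 6 each). The mitochondrial members summed to 15987, 12677, 15947, 14062, 13935 and 18569 CPM in AnnexinV-positive libraries 1 to 6, and to 13366, 9894, 9536, 15915, 24390 and 13275 CPM in double-negative libraries 1 to 6. Here double-negative library 5 was the highest of all 12 and double-negative libraries 2 and 3 were the lowest. The means were 15196 ± 2088 CPM and 14396 ± 5448 CPM (SD, n = 6 each), and the double-negative mean was 12397 ± 2671 CPM (SD, n = 5) without library 5. Double-negative libraries 4 to 6 alone averaged 17860 ± 5807 CPM (SD, n = 3), so leaving out libraries 1 to 3 turned the direction of the difference.

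The mitochondrial sum divided by the nuclear sum does not depend on how libraries are scaled. It averaged 1.08 ± 0.19 in AnnexinV-positive libraries and 1.24 ± 0.53 in double-negative libraries (SD, n = 6 each). Double-negative library 5 stood at 2.25, and the other 5 double-negative libraries averaged 1.04 ± 0.20 (SD, n = 5). Over all 12 libraries the groups overlapped in this ratio with and without that library. Within replicates 1 to 3 the ratio was 1.27, 1.05 and 1.35 in AnnexinV-positive libraries and 1.20, 0.797 and 0.857 in double-negative libraries, which overlapped. Within replicates 4 to 6 it was 0.911, 0.884 and 1.002 in AnnexinV-positive libraries and 1.26, 2.25 and 1.08 in double-negative libraries, which did not overlap with or without double-negative library 5. The means thus lay in opposite directions in the sets, a difference that was not tested.

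**Figure D3:**
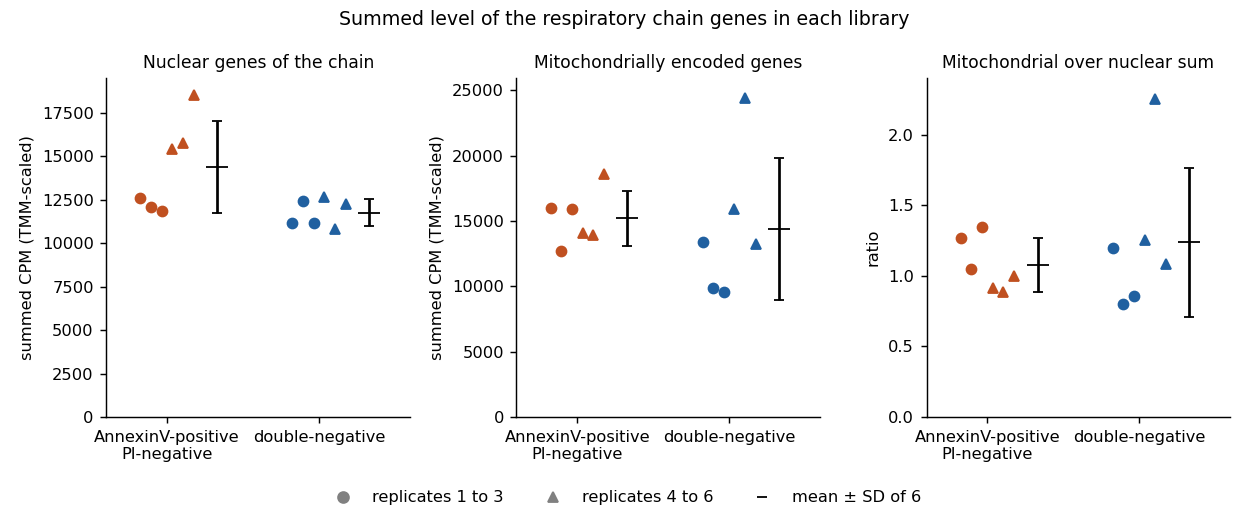
Summed CPM of the nuclear members, summed CPM of the mitochondrial members, and their ratio (vertical axes) in each of the 6 AnnexinV-positive and 6 double-negative libraries, with circles for replicates 1 to 3, triangles for replicates 4 to 6 and black bars for mean ± SD. AnnexinV-positive libraries 4 to 6 stand at 15442 to 18527 CPM for the nuclear genes, and double-negative library 5 stands at 24390 CPM for the mitochondrial genes. Counts assigned to copies are left out.

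The sort groups were also compared within each replicate set. Within replicates 1 to 3, 10 of 11 mitochondrial members were positive with a median log2 fold change of 0.53, beside 0.06 over all genes. Nuclear members were positive for 38 of 72 with a median of 0.08. Within replicates 4 to 6, 0 of 12 mitochondrial members were positive (median -0.24) and 65 of 76 nuclear members were (median 0.39), including 11 of 11 tested for complex IV and 17 of 17 for complex V. The mitochondrial values leave out counts assigned to nuclear copies. With these added, mt-Co3 had 697, 711 and 1127 CPM in AnnexinV-positive libraries 4 to 6 and 639, 1060 and 532 CPM in double-negative ones. The mitochondrial sum then averaged 22545 ± 3055 CPM and 25069 ± 8672 CPM (SD, n = 3 each) in the same order. Positive values made up 52.6% of all genes in replicates 1 to 3 and 52.3% in replicates 4 to 6. Within replicates 1 to 3, edgeR called 0 members, where it called 1.73% of all genes, and a raw p under 0.05 was found for 6 members (5 of 11 mitochondrial and 1 of 72 nuclear), where 12.3% of all genes had one. Within replicates 4 to 6, edgeR called 0 members, where it called 0.266% of all genes, and a raw p under 0.05 was found for 5 members (0 of 12 mitochondrial and 5 of 76 nuclear), where 10.4% of all genes had one. DESeq2 also called 0 members in both sets, where it called 3.02% and 2.66% of all genes, with a raw p under 0.05 for 3 members within replicates 1 to 3, beside 12% of all genes, and 2 within replicates 4 to 6, beside 11.5%.

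Libraries that did not overlap between the groups were counted in the same way. Within replicates 1 to 3, 5 of 11 mitochondrial and 4 of 76 nuclear members were higher in all AnnexinV-positive libraries than in any double-negative one, beside 11.5% of all genes, and 0 of 11 and 4 of 76 were lower, beside 8.63%. Within replicates 4 to 6 this held for 0 of 11 mitochondrial and 22 of 76 nuclear members, beside 12.3% of all genes, and 1 of 11 (mt-Nd6) and 0 of 76 were lower, beside 8.42%. Replicates 1 to 3 include the double-negative libraries with haemoglobin, and replicates 4 to 6 include double-negative library 5. Within replicates 4 to 6 without double-negative library 5, 8 of 13 mitochondrial members were positive (median 0.09) and 61 of 76 nuclear members were (median 0.52). These 13 include mt-Nd3 and mt-Nd4l, which were not among the 11 above and whose counts were split with nuclear copies. The share among all genes without that library is not given here. Without that library mt-Nd6 was still lower in AnnexinV-positive libraries 4 to 6, at 151, 142 and 140 CPM, than in double-negative libraries 4 and 6, at 199 and 176 CPM.

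**Figure D4:**
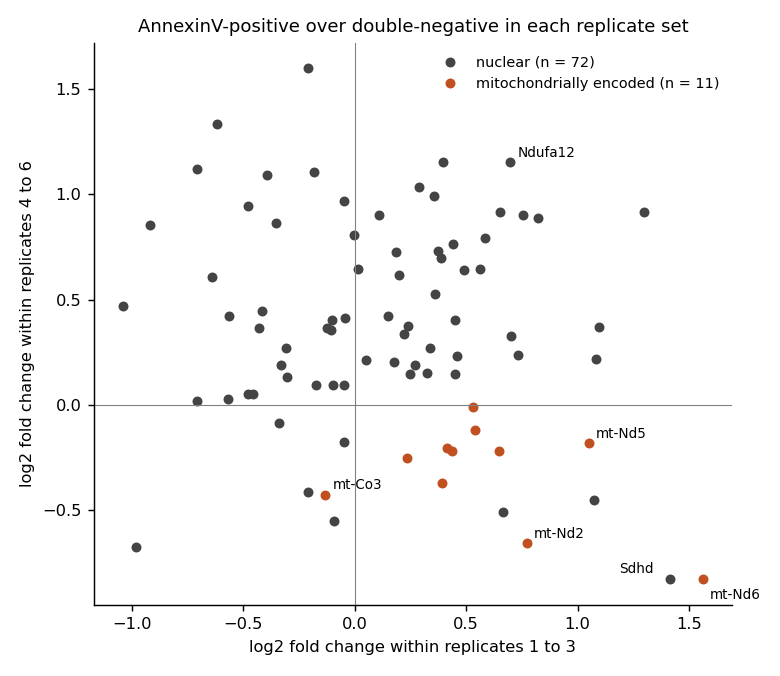
Log2 fold change of AnnexinV-positive over double-negative libraries within replicates 1 to 3 (horizontal axis) and within replicates 4 to 6 (vertical axis) for the 72 nuclear (grey) and 11 mitochondrial (orange) members tested in both. The 11 mitochondrial members, without the counts of their nuclear copies, lie below 0 on the vertical axis, and 10 of them lie above 0 on the horizontal axis.

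The difference between the sets was tested as an interaction. In edgeR 0 of 87 members passed the adjusted threshold, where 0.0789% of all 3800 genes did, and 6 members had a raw p under 0.05, where 6.29% of all genes did. DESeq2 called 0 members, where it called 0.211% of all genes, and 8 members had a raw p under 0.05, beside 8.05% of all genes. On simulated counts the interaction test found 2.8% of 4-fold changes. All 11 mitochondrial members tested had a negative interaction (lower in replicates 4 to 6), with a median of -0.59, and 59 of 76 nuclear members had a positive one, with a median of 0.40, beside -0.01 over all genes, of which 49.6% were positive. Without double-negative library 5 the counts were 10 of 11 and 55 of 76, with medians of -0.33 and 0.39, and the share among all genes is not given here. Mitochondrial RNAs are cut from shared precursors, so these members are not independent of each other. Their values here also leave out the counts assigned to nuclear copies.

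The gene with the smallest interaction p among the members was mt-Nd6. It had 195, 245 and 140 CPM in AnnexinV-positive libraries 1 to 3, and 79.2, 70.7 and 46.1 CPM in double-negative libraries 1 to 3. In AnnexinV-positive libraries 4 to 6 it had 151, 142 and 140 CPM, and in double-negative libraries 4 to 6 it had 199, 397 and 176 CPM. The AnnexinV-positive libraries were thus above the double-negative ones in the first set and below them in the second, with no overlap in either. The interaction was -2.32 (SE 0.71) on the log2 scale, with an adjusted p of 0.383 in edgeR. The interactions of mt-Nd2 and mt-Nd5 were -1.35 (SE 0.51) and -1.16 (SE 0.44). Within replicates 1 to 3, mt-Nd5 had 1263, 990 and 1229 CPM in AnnexinV-positive libraries and 767, 348 and 630 CPM in double-negative libraries, a log2 fold change of 1.05 (SE 0.30) with an adjusted p of 0.115 in edgeR.

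**Figure D5:**
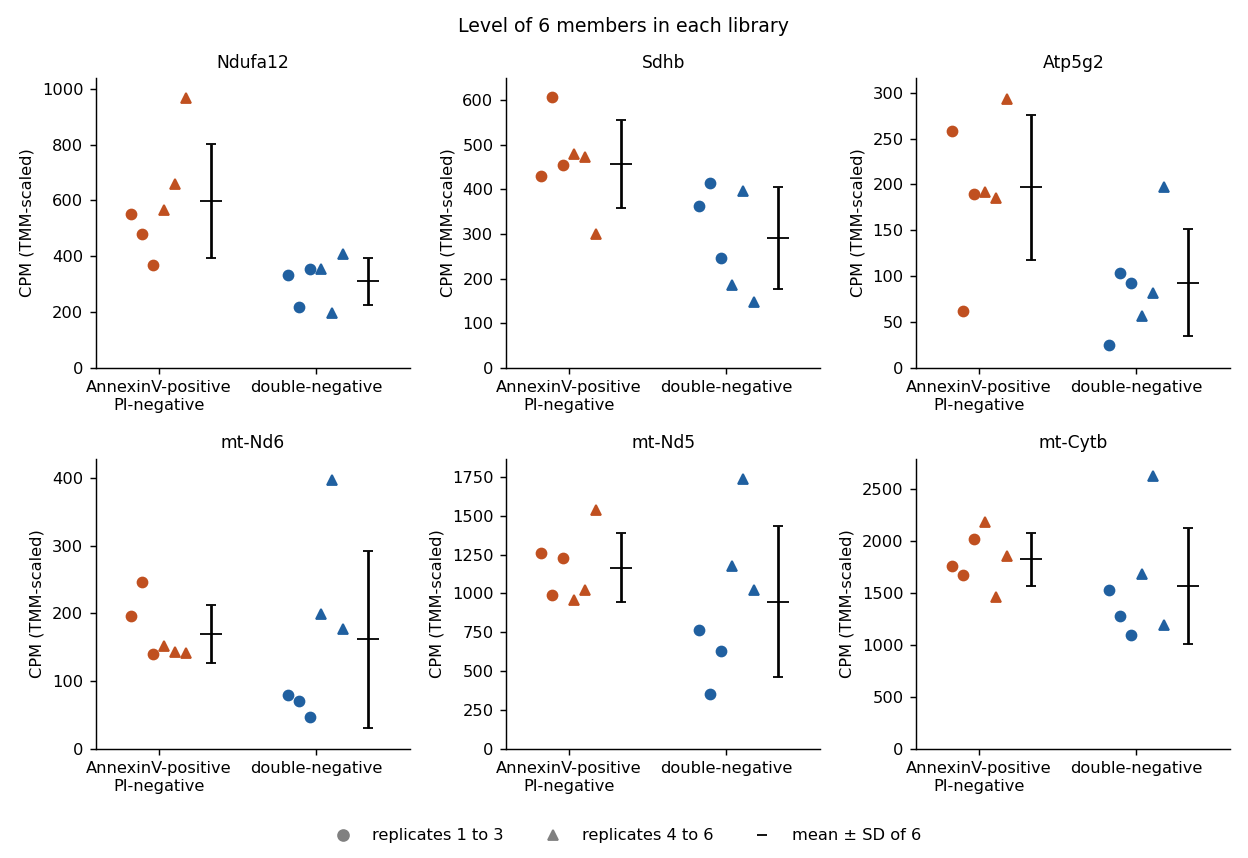
CPM (vertical axes) of 6 members in each of the 6 AnnexinV-positive and 6 double-negative libraries, with circles for replicates 1 to 3, triangles for replicates 4 to 6 and black bars for mean ± SD. For mt-Nd6 the double-negative circles (46.1 to 79.2 CPM) lie below all AnnexinV-positive libraries, and the double-negative triangles (176 to 397 CPM) lie above the AnnexinV-positive triangles (140 to 151 CPM).

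Each sort group was also compared with itself between the sets. Among AnnexinV-positive libraries, replicates 4 to 6 minus replicates 1 to 3 gave a positive log2 difference for 68 of 76 nuclear members (median 0.48) and 6 of 11 mitochondrial members (median 0.01), beside 50.1% of all genes. Among double-negative libraries, it gave 43 of 76 nuclear members (median 0.10) and 11 of 11 mitochondrial members (median 0.74), beside 49.1% of all genes. In edgeR 0 members passed the adjusted threshold among AnnexinV-positive libraries (0.132% of all genes did), with a raw p under 0.05 for 6 members, beside 5.87% of all genes. It called 0 members among double-negative libraries (0.184% of all genes), with a raw p under 0.05 for 7 members, all mitochondrial, beside 9.42% of all genes. Among the double-negative libraries, mt-Nd5 had 1.17 (SE 0.32), with an adjusted p of 0.142, and mt-Nd6 had 1.90 (SE 0.52), with an adjusted p of 0.146. The same contrast in AnnexinV-positive libraries gave 0.02 for mt-Nd5 and -0.42 for mt-Nd6. Ribosomal RNA took 37.7% to 43.6% of the counts in double-negative libraries 4 to 6 and 22.3% to 28.4% in double-negative libraries 1 to 3; its part in these values was not tested. The neuronal markers summed to 385 to 785 CPM in AnnexinV-positive libraries 4 to 6 and 998 to 1234 CPM in AnnexinV-positive libraries 1 to 3, and the progenitor markers averaged 2442 ± 255 CPM and 3207 ± 451 CPM (SD, n = 3 each) in the same sets. The part of these markers in the nuclear members' values was not tested.

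Other genes of the pathway were read from lists of assembly factors, mitochondrial DNA upkeep, biogenesis regulators, the citric acid cycle, electron carriers and transport. Across these lists and mitochondrial ribosomal RNA, edgeR called 0 genes, beside 1.87% of all genes tested. Beside the counts below, 15.7% of all genes had a raw p under 0.05 and 53.3% were positive. Of 48 complex assembly and inhibitory factors, 13 were tested, 6 were positive and 2 had a raw p under 0.05, a share near that of all genes. The 2 were Uqcc2, an assembly factor of complex III, at 1.24 (SE 0.57), and Atpif1, the inhibitor of ATP synthase, at -0.77 (SE 0.29). Atpif1 averaged 448 ± 167 CPM in AnnexinV-positive libraries and 767 ± 302 CPM in double-negative libraries, and Uqcc2 averaged 124 ± 50.4 CPM and 49.6 ± 40.1 CPM (SD, n = 6 each).

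Of 23 genes for transporters, channel and import, 19 were tested, 12 were positive and 2 had a raw p under 0.05, a share below that of all genes. Timm23, the pore of the inner membrane translocase, had 230, 284, 229, 284, 241 and 327 CPM in AnnexinV-positive libraries 1 to 6, and 33.3, 109, 46.1, 241, 56.7 and 108 CPM in double-negative libraries 1 to 6. Only double-negative library 4 reached the AnnexinV-positive range, and the log2 fold change was 1.40 (SE 0.40), with an adjusted p of 0.0677 in edgeR. Vdac2, a channel of the outer membrane, had 1.41 (SE 0.46), and Slc25a5, an ADP/ATP carrier, had 0.50 (SE 0.25).

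Of 4 electron carrier genes tested, 4 were positive, with Etfb, a subunit of the electron transfer flavoprotein, at 1.25 (SE 0.65) and Cycs, cytochrome c, at 0.51 (SE 0.30). Of 13 citric acid cycle and pyruvate dehydrogenase genes tested, 9 were positive, with Ogdh, of the oxoglutarate dehydrogenase complex, at -1.60 (SE 0.78) and Pdhb at -1.05 (SE 0.56). In the list for mitochondrial DNA and RNA upkeep 4 of 7 were positive, led by Hsd17b10 at 1.05 (SE 0.64). Of 10 biogenesis regulators only 2 had enough counts to be tested, Gabpa, the DNA-binding subunit of GABP, at 1.11 (SE 0.92) and Yy1 at 0.58 (SE 0.65). The mitochondrial ribosomal RNAs mt-Rnr1 and mt-Rnr2 had -0.46 (SE 0.33) and -0.23 (SE 0.27).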

How the data were processed

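Gene counts were deposited by the authors as a table of 12 bulk libraries made with a modified smart-seq2 method, per the labels' protocols. The submitters' processing notes name Trimmomatic, STAR, featureCounts and Seurat 4 and the builds GRCm38 and mm10, without their roles. The deposited values are estimated counts, since 8.84% of non-zero values are not whole (tolerance 1e-06) and these hold 17.1% of all counts; they were rounded for the tests. The second deposited table, labelled TPM, sums to 764763 to 1835685 per library, so it was read as a score and used on the log2(value + 1) scale in 1 alternative only.

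Counts were tested with edgeR 4.0.16 (R 4.3.3) by the quasi-likelihood test, with a minimum count of 10, a minimum total count of 15, TMM scaling and Benjamini-Hochberg adjustment over all genes tested, two-sided at 0.05. The design assumed whole counts. CPM values divide rounded counts by TMM-scaled library sizes, where 1 count is 2.41 to 5.74 CPM in AnnexinV-positive libraries and 3.60 to 15.4 CPM in double-negative libraries. DESeq2 1.42.0 and limma 3.58.1 served as alternatives. The test was checked on 5 simulated data sets of 3800 genes. Nuclear copies were found with blastn 2.17.0 among GENCODE M21 transcripts at 97% identity or more over at least 150 bases and 90% of the copy. Copies, coordinates and exon lengths refer to GRCm38, and 114 of 115 symbols were matched. The text names all mitochondrial members, for each complex the 4 nuclear members with the smallest p and the 2 with the highest mean, the isoform sets, and up to 3 genes of each other list by smallest p. Members and lists were chosen with earlier results of these data known. Alternatives comprised other scalings and filters, a replicate block, replicate set as a term and libraries left out; adding copy counts was chosen after seeing the data.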

Additional observations from a re-analysis of the deposited data

Results flagged for a closer look

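In groups of 6 libraries, the gap between an extreme library and its nearest neighbour was set against the whole range for 110 groups of values (named members, sums and the ratio), and 8 groups held a library that stood apart at a level that chance gives in about 1 in 20 groups.

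AnnexinV-positive library 6 was the highest in 4 of them. It had 3589 CPM for mt-Co1, where the other 5 had 2439 to 2847, and 1949 CPM for mt-Nd4, where the others had 1444 to 1574. It had 336 CPM for Cox8a, where the others had 165 to 229, and 2291 CPM for the nuclear genes of complex III together, where the others had 1239 to 1630. The same library had the highest endothelial and mesenchymal marker sums of its group, 558 and 1070.2 CPM, and the lowest cortex and neuronal marker sums, 350.3 and 385 CPM. Ribosomal RNA took 41.3% of its counts, against 21.5% to 30.5% in the other 5, and the part of these values in its levels was not tested.

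Double-negative library 4 was the highest of its group for Ndufc2, at 234 CPM beside 46.1 to 101 CPM, and for Atp5a1, at 234 CPM beside 30.7 to 104 CPM. Double-negative library 6 had 198 CPM of Sdhd, and the other double-negative libraries had 43.5 to 97.1. The mitochondrial sum over the nuclear sum was 2.25 in double-negative library 5 and 0.797 to 1.26 in the other 5.

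The change of mt-Nd6 between sort groups had opposite directions in the replicate sets, with no overlap of libraries in either. The difference between the sets was -2.32 on the log2 scale, with a raw p of 0.0033 and an adjusted p of 0.383 in edgeR, so it did not pass. Opposite directions without overlap were also found for Atp5e and for 28 of 3800 genes in all (0.737%).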

How the results depend on the processing

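The call of 0 members between the sort groups became 1 (Ndufa12) with upper-quartile scaling, DESeq2 and no filter on low counts, and the 0 within replicates 1 to 3 became 1 (mt-Nd5) with no filter. Median log2 fold changes moved with limma on the second deposited table, to 0.53 for nuclear members (0.27 on counts), 0.49 for all members (0.21), 0.50 for nuclear complex I (0.20), 0.51 for nuclear complex IV (0.17), and 0.39 and 0.72 for nuclear members within replicates 1 to 3 and 4 to 6 (0.08 and 0.39); that table moved the median of all genes from 0.06 to 0.42. With no filter, nuclear complex IV had 0.44 and nuclear members within replicates 4 to 6 had 0.59. Nuclear complex IV had 0.46 without double-negative libraries 1 to 3. Leaving out 1 library at a time gave 0.34 to 0.63 for nuclear and -0.34 to 0.088 for mitochondrial members within replicates 4 to 6, the 0.088 being without double-negative library 5. Over both sets, the mitochondrial median was -0.22 without double-negative libraries 1 to 3. Log2 ratios of summed CPM on total counts, which include ribosomal RNA and haemoglobin, were 0.64 for nuclear, 0.42 for mitochondrial and 0.52 for all members (0.29, 0.08 and 0.18 on the TMM scale), 0.60, 0.88, 0.76, 0.63 and 0.61 for nuclear complexes I to V, and 0.48, 0.60, 0.32 and 0.39 for mitochondrial complexes I, III, IV and V. The cause of these shifts was not tested. With the replicate block 0 members were called, with medians of 0.28 (nuclear) and 0.13 (mitochondrial), and it changed no other call. Same-numbered libraries had correlations of -0.0069 to 0.078, and 2 of 6 correlated best with their own number. Across the sort groups, correlations ran from -0.045 to 0.106 within the same replicate set and from -0.089 to 0.025 between sets. Correlations this low cannot decide whether same-numbered libraries share an embryo, litter or sort. Of 3462 values of single genes, 3458 kept their side of the threshold, 4 passed it and 177 uncalled values differed in sign. Depth limits single genes, since 1 count is up to 15.4 CPM.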
